A study of Mus musculus with 14 samples.

Results

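The marking of histone H3 by trimethylation of lysine 4 (H3K4me3) was compared in mouse prefrontal cortex between 5 libraries taken after 10 days of social defeat (CSDS10) and 3 control libraries, out of 13 ChIP-seq libraries and 14 samples in all. All members were chosen by their labels. In the CSDS10 group, adult C57BL/6J males of 10 to 12 weeks, with no engineered allele named in the labels, met an unfamiliar aggressive CD1 mouse for a short encounter each day over 10 days and otherwise lived beside such an aggressor behind a perforated barrier. The control group consisted of mice of the same strain, sex and age, kept in divided cages with no aggressor. The cortex was dissected 24 hours after the final session. Chromatin was cut to single nucleosomes with micrococcal nuclease before immunoprecipitation. The labels do not tie each library to a separate animal, so that a p-value here reflects how these libraries spread, which may be technical, and every library carries the same batch date.

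H3K4me3 is laid down by the SET1 and MLL methyltransferase complexes and removed by KDM5 demethylases. In most cells it sits on the nucleosomes that flank the start site of active and poised genes, and broad stretches of it mark genes that define a cell's identity. In neurons it covers the starts of synaptic and housekeeping genes as well as those of activity-regulated genes. Social defeat is a widely used model of chronic stress in rodents, and the prefrontal cortex is a region whose neurons and glia are known to respond to it.

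The deposited table gives the mark at 153207 summits, the local maxima of the signal, as reads divided by a size factor per library. These summits belong to 48695 called regions. A region's value here is the sum of the values of its summits. A region held a single summit in 21251 cases and 2 or more in 27444 cases, with up to 39. Neighbouring summits of a region lay 179 bp apart in the median, near the length of a nucleosome with its linker, so a region's sum counts the mark over several nucleosomes and 1 fragment may count at more than 1 summit.

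One library stood apart. CSDS10 replicate 2 had a mean correlation of 0.939 with the other libraries over log2 region values, against 0.950 to 0.965 in the other CSDS10 libraries and 0.955 to 0.961 in the control libraries. On the first principal component, which held 28.3% of the variance, it scored 104, against -37.7 to 2.02 in the other CSDS10 libraries and -53.6 to 49.2 in the control libraries. Values without it are given beside results that moved with it. Reads on summits ran from 4512817 to 9351959 in CSDS10 and from 6642802 to 10887911 in control. Each library had 9 measures, among them the number of regions at 0. Others were the share of signal near protein-coding gene boundaries, in wide regions, in the strongest regions and between genes. The measures gave exact two-sided permutation p-values from 0.321 to 1.00 (adjusted p = 1.00 for each). The 56 splits of 5 against 3 libraries allow no p below 0.0357. Markers of cell types and tissues were looked up as well. A region lay within 2 kb of a gene boundary for 6 of 6 markers of excitatory neurons, among them Neurod2 and Tbr1. The same held for 4 of 6 of inhibitory neurons, 5 of 8 of oligodendrocytes, 3 of 5 of astrocytes and 2 of 4 of microglia. It also held for 5 of 5 of striatum, 3 of 5 of olfactory bulb and 3 of 4 of endothelial and mural cells. For ependyma and choroid plexus it was 2 of 4, and for blood 1 of 3. Having a region thus does not tell the prefrontal cortex from other parts of the brain. Among the markers with no such region were Slc32a1, Sst, Mog, Mobp, Gfap, Aqp4, Cx3cr1 and Csf1r. In whole tissue, fewer cells of a type and less of the mark per cell cannot be told apart.

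No region, no single summit and no redistribution of the mark within a region passed the threshold of an adjusted p of 0.05 after 10 days of defeat. Of 48174 regions tested with limma on log2(value + 1), 0 (0%) were called, and the smallest adjusted p was 0.9996. At an unadjusted p under 0.05 stood 1514 regions (3.14%), of which 907 were higher (1.88%) and 607 lower (1.26%) in CSDS10. Tests on the recovered reads called 0 regions as well, with 1446 regions (edgeR with TMM scaling), 1466 (edgeR with DESeq2 size factors) and 1474 (DESeq2) at an unadjusted p under 0.05. Of 152270 summits, 0 were called (0%) and 4891 (3.21%) stood at an unadjusted p under 0.05. The median region had a 95% confidence interval of ± 0.532 on the log2 scale. It was narrower in regions with more summits, ± 0.218 for those of 8 or more. In 78.2% of the regions the whole interval lay within a log2 fold change of ± 1, so that a change beyond 2-fold is outside the interval there. Summing helped most where a region had several summits: the interval was ± 0.334 for regions of 2 or more summits, against ± 0.414 for the strongest summit of the same regions. Leaving out 1 library moved the number of regions at an unadjusted p under 0.05 to between 944 (without control replicate 3) and 2210 (without control replicate 1), with 0 called each time.

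Since no region passed, the genes below are a description of where the groups lay farthest apart. They are the 10 regions per direction with the smallest p among those that have a summit within 2 kb of either boundary of a protein-coding gene, a mean value of 20 or more and groups that do not overlap. Of all tested regions, 1562 (3.24%) had groups that do not overlap, 809 higher (1.68%) and 753 lower (1.56%) in CSDS10. The promoters of the 3 genes that lead each direction are shown first, 250 bases before to 50 bases after the start site, from the RefSeq promoter table on GRCm38.p6. Capitals mark matches, on either strand, to 9 motifs that were searched: the TATA box (TATAAA), the CCAAT box (CCAAT), the GC box (GGGCGG), the cAMP response element (TGACGTCA), the core of AP-1 sites (TGANTCA), the E-box (CACGTG), an ETS site (CCGGAAGT) and, by name, the palindromic sites of NRF1 and of the glucocorticoid receptor. The 3 genes that were higher in CSDS10 come first:
Ifrd1: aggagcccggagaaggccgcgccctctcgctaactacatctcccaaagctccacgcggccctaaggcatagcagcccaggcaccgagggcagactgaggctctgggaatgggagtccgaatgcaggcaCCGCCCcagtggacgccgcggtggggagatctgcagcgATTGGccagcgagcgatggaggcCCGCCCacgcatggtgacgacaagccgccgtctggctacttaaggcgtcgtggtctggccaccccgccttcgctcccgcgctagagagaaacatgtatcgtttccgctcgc
Ufl1: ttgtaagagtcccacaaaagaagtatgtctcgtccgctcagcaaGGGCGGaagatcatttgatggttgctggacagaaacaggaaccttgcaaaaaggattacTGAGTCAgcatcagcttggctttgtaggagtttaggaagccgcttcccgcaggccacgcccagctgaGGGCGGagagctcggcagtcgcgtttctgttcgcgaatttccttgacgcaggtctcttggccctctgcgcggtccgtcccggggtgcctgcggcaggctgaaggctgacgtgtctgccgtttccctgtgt
Zfp933: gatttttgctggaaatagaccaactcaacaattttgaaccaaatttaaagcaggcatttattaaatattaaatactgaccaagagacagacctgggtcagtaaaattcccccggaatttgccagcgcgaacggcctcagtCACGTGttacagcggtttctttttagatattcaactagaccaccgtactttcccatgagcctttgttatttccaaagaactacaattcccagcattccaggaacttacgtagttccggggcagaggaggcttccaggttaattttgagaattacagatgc
The 3 genes that were lower in CSDS10 follow:
Ngfr: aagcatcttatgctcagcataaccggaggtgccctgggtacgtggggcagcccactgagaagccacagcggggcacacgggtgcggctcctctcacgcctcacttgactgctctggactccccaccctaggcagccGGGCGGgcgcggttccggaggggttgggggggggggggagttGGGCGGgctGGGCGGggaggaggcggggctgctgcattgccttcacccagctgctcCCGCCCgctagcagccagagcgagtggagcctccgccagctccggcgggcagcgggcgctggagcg
Cfap52: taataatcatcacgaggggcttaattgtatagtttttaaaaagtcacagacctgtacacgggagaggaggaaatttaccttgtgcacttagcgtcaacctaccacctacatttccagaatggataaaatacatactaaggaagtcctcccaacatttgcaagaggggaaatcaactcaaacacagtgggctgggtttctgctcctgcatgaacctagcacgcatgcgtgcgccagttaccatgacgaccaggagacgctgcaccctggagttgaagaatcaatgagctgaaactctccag
Tbx21: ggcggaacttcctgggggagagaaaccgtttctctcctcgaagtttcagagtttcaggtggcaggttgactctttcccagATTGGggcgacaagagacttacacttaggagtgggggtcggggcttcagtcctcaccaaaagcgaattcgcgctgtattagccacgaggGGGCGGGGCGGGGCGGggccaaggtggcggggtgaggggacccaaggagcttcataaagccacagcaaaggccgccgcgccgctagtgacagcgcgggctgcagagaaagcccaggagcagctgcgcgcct

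These windows lie, on the minus strand of GRCm38 in all 6 cases, at chr12:40223140-40223439 (Ifrd1), chr4:25281772-25282071 (Ufl1), chr4:147848369-147848668 (Zfp933), chr11:95587649-95587948 (Ngfr), chr11:67965593-67965892 (Cfap52) and chr11:97115282-97115581 (Tbx21). Both directions hold CpG-rich and CpG-poor promoters. Ifrd1 has 29 CpG dinucleotides, Ufl1 20 and Zfp933 9, while Ngfr has 23, Tbx21 21 and Cfap52 8; the median over 17492 promoters is 13. The GC box GGGCGG, the site of Sp1-like factors, is found in Ifrd1, Ufl1, Ngfr and Tbx21, with overlapping copies in Tbx21, and in 46.3% of all promoters. Ifrd1 and Tbx21 also match the CCAAT box, as do 39.0% of promoters, Ufl1 matches TGANTCA (7.08%), the core of AP-1 sites, and Zfp933 matches the E-box CACGTG (7.90%). Cfap52 matches none of the 9 motifs. None of the 6 windows matches the glucocorticoid receptor site, which is in 0.00572% of promoters. The strongest summit lay 808 bp into the gene at Ifrd1, 173 bp at Ufl1, 186 bp at Ngfr, 115 bp at Cfap52 and 159 bp at Tbx21, and at Zfp933 it lay at -385 bp, before the start site.

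The regions that were higher in CSDS10 are taken first. Ifrd1, a co-regulator of transcription that nerve growth factor and other stimuli induce, led the list. Its region of 10 summits (chr12:40221079-40222577) had normalised values of 577, 535, 609, 656 and 559 in CSDS10 replicates 1 to 5, against 509, 359 and 430 in control replicates 1 to 3. All 5 CSDS10 libraries lay above all 3 control libraries, and 9 of the 10 summits were higher. The log2 fold change was 0.45 ± 0.11 (SE; limma, unadjusted p = 0.000609, adjusted p = 0.9996), and 0.32 to 0.58 with any 1 library left out. Ufl1, the ligase that attaches the ubiquitin-like protein UFM1, had values of 371, 375, 314, 418 and 336 in CSDS10 and of 291, 230 and 264 in control over 4 summits. Again the groups did not overlap, and the difference, 0.47 ± 0.12 (SE), was spread over 4 of 4 summits. Zfp933, a zinc-finger gene, stood at 217, 196, 244, 241 and 167 in CSDS10 and at 150, 145 and 119 in control (log2 fold change 0.62 ± 0.16, SE). Fem1c, a substrate receptor of the cullin-2 ubiquitin ligase on chromosome 18, carried the widest of these regions, with 18 summits. Its values were 1119, 1136, 1105, 1081 and 1118 in CSDS10 and 1069, 834 and 859 in control. Here the CSDS10 libraries lay close together and just above control replicate 1, and the log2 fold change was 0.28 ± 0.08 (SE).

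A single region between the replication-dependent histone genes H2ac8, H2bc7 and H2bc8 on chromosome 13 had values of 72.2, 69.2, 71.5, 79.6 and 90.3 in CSDS10 and of 50.3, 48.6 and 39.0 in control. It was higher in CSDS10 at 3 of 3 summits, with a log2 fold change of 0.73 ± 0.21 (SE). Tcaf1, a regulator of TRPM8 channels, had 529 ± 49.7 in CSDS10 against 414 ± 42.2 in control, at 7 of 7 summits. Magohb, a core protein of the exon junction complex, had 161 ± 5.27 in CSDS10 against 112 ± 15.6 in control (SD, 5 and 3 libraries). For both genes every CSDS10 library lay above every control library. The region shared by Mttp, which loads lipid onto lipoproteins, and Trmt10a, a tRNA methyltransferase, had 96.5 ± 17.8 in CSDS10 and 51.4 ± 16.9 in control. Eef1aknmt, which methylates the elongation factor eEF1A, and Ank, a membrane protein tied to the export of pyrophosphate, were weak regions of 1 summit. Eef1aknmt had 22.4 ± 3.94 in CSDS10 and 10.0 ± 2.83 in control, and Ank 30.0 ± 7.30 in CSDS10 and 13.8 ± 5.06 in control. The condition of a mean of 20 is set on all 13 libraries, and Eef1aknmt met it only with those of the CSDS30 group, taken after 30 days of defeat: its mean over the 8 libraries compared here was 17.7, and that of Ank 23.9. Their log2 fold changes of 1.10 ± 0.31 and 1.09 ± 0.32 have the largest errors of the 10.

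Ngfr, the p75 receptor of neurotrophins, led the regions that were lower in CSDS10. It had values of 224, 222, 231, 296 and 263 in CSDS10 and of 314, 334 and 356 in control over a region of 8 summits (chr11:95586557-95587777). Every CSDS10 library lay below every control library and 8 of 8 summits were lower, with a log2 fold change of -0.44 ± 0.13 (SE; limma, unadjusted p = 0.00220, adjusted p = 0.9996). It stayed between -0.51 and -0.40 with any 1 library left out. Fdps, which makes farnesyl diphosphate for cholesterol and prenyl groups, had 381, 320, 397, 332 and 315 in CSDS10 and 433, 447 and 425 in control. The control libraries lay within a narrow band above all CSDS10 libraries, and again 8 of 8 summits were lower (-0.32 ± 0.10, SE). Mafk, a small Maf protein that pairs with NRF2 and BACH factors, showed the least spread. Its values were 406, 391, 366, 378 and 388 in CSDS10 and 453, 467 and 471 in control. The log2 fold change was -0.27 ± 0.09 (SE), and -0.28 to -0.25 with any 1 library left out.

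Tbx21, a T-box factor known from T helper cells and from output neurons of the olfactory bulb, had 115, 113, 89.4, 74.5 and 108 in CSDS10 and 151, 155 and 133 in control. The groups did not overlap and 4 of 4 summits were lower (-0.56 ± 0.18, SE). Olfactory bulb markers as a list, Tbx21 among them, had 2 members higher and 5 lower of 7 with a tested region, with a median of -0.06. Of the defining markers, Eomes, Cdhr1 and Tbx21 had a region, and Th and Doc2g had none. Over those with a region, the median value per library ran from 104 to 148 in CSDS10 and from 146 to 151 in control. Tbx21 is itself a member of that median, so the median is no separate check on Tbx21. The log2 fold change was 0.04 ± 0.19 at Cdhr1 and -0.04 ± 0.18 at Eomes (SE). The part of bulb tissue in the Tbx21 difference was not tested. Shank2, a scaffold of the postsynaptic density of glutamate synapses, had 60.7 ± 9.21 in CSDS10 and 97.0 ± 25.4 in control at a region of 3 summits near a gene boundary. Rtn4rl2, a member of the Nogo receptor family, had 33.7 ± 8.12 in CSDS10 and 58.6 ± 6.90 in control (SD, 5 and 3 libraries). In both, all summits were lower and the groups did not overlap. Wnt1, a secreted patterning signal, had values from 15.5 to 23.5 in CSDS10 and from 32.8 to 43.4 in control at a single summit. A summit between Cfap52, a gene of motile cilia, and Stx8, an endosomal fusion protein, had 22.7 ± 4.92 in CSDS10 and 44.7 ± 9.10 in control. That difference belongs to the 1 summit: with regions within 2 kb merged, the log2 fold change was 0.06, against -0.96 ± 0.29 (SE) for the region itself. Ivd, an enzyme of leucine breakdown, had 49.0 ± 10.1 in CSDS10 and 76.0 ± 4.38 in control, and Cyp4f39, a cytochrome P450, ran from 13.6 to 31.2 in CSDS10 and from 38.4 to 42.4 in control. None of these weak regions had groups that overlapped.

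**Figure D1:**
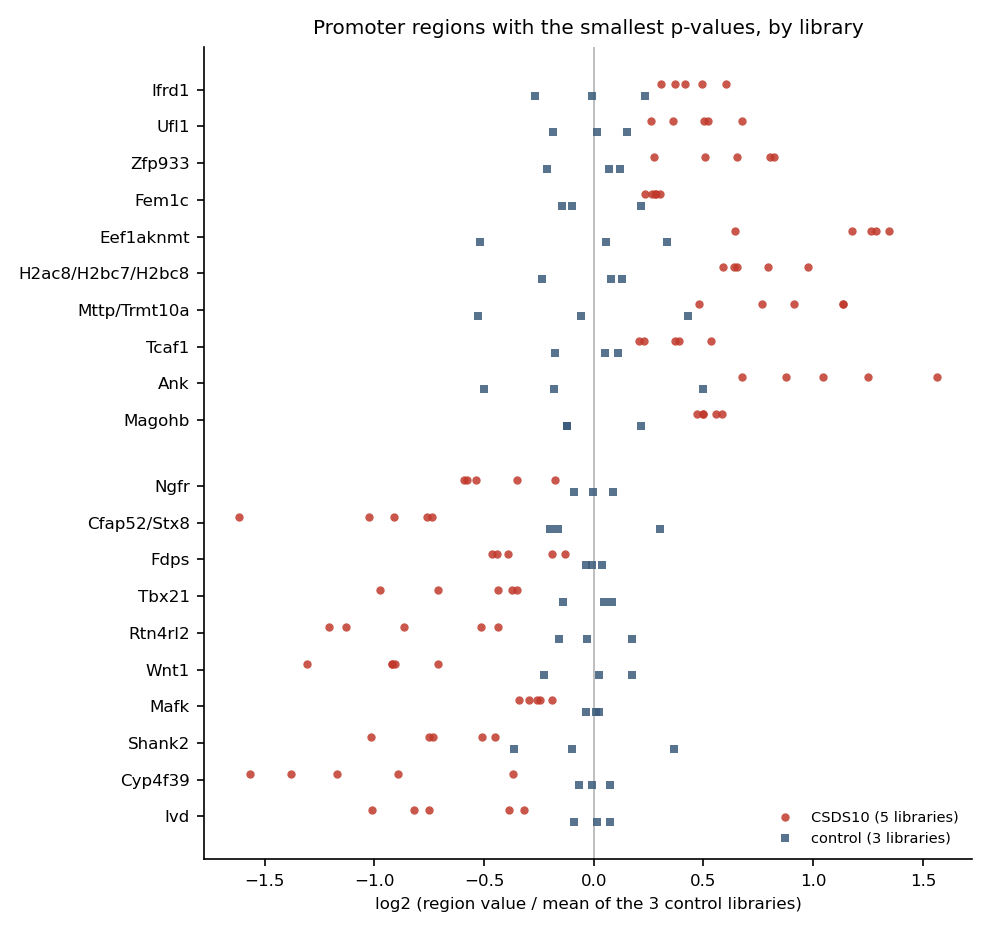
Each row is a region with a summit within 2 kb of either boundary of a protein-coding gene, by which it is named. Each point is a library: CSDS10 as circles, control as squares just below. The horizontal axis is the log2 ratio of the region's normalised value to the mean of the 3 control libraries. The upper 10 rows are regions that were higher in CSDS10 and the lower 10 regions that were lower, and the groups do not overlap in any row, which was a condition for their choice.

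Among wide regions, those of 8 or more summits, the smallest p-values per direction belonged to Ifrd1, Fem1c and Msmo1 (higher) and to Ngfr, Fdps and Mafk (lower). Msmo1, a methylsterol oxidase of cholesterol synthesis, had 521, 483, 537, 551 and 523 in CSDS10 and 434, 401 and 378 in control. All CSDS10 libraries lay above all control libraries, 10 of 10 summits were higher, and the log2 fold change was 0.37 ± 0.11 (SE). Msmo1 and Fdps belong to the same biosynthetic route and lay in opposite directions. Over all 4349 wide regions, 100 were higher and 21 lower at an unadjusted p under 0.05, that is 2.30% and 0.483%, against 1.88% and 1.26% of all regions. This difference from all regions rests on single libraries and on the sum over summits. Without CSDS10 replicate 2, 102 wide regions were higher and 63 lower (2.35% and 1.45%), against 2.61% and 1.43% of all regions. Without control replicate 1 the counts were 128 and 50 (2.94% and 1.15%), against 3.07% and 1.52% of all regions. Without control replicate 3 they were 58 and 16 (1.33% and 0.368%), against 1.39% and 0.573% of all regions. With all libraries and the strongest summit in place of the sum, they were 69 and 38 (1.59% and 0.874%), against 1.91% and 1.23% of all regions. The median log2 fold change of the wide regions was 0.008, and -0.020 without CSDS10 replicate 2.

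Away from genes, beyond 2 kb of any boundary, the regions with the smallest p-values were weak and mostly of a single summit. Inside Kcnj3, which encodes the potassium channel subunit GIRK1, a summit at chr2:55438717-55438718 had 23.0, 31.1, 31.1, 22.0 and 17.1 in CSDS10 and 12.6, 6.08 and 5.73 in control. Its p of 0.000216 (limma, unadjusted) was the smallest of all tested regions. Inside Lrrc4c, which encodes the synaptic adhesion protein NGL-1, a summit had 27.1, 32.5, 39.5, 25.4 and 19.5 in CSDS10 and 6.99, 12.2 and 13.8 in control. Inside Itgb8, which encodes integrin beta 8, a summit had 26.1 ± 6.88 in CSDS10 and 8.68 ± 2.88 in control. These 3 were higher in every CSDS10 library than in any control library, and over the 8 libraries their means were 18.6 (Kcnj3), 22.1 (Lrrc4c) and 19.6 (Itgb8). In the other direction, a pair of summits inside Pecam1, an adhesion protein of endothelial cells, had 44.3, 18.4, 42.4, 22.0 and 26.0 in CSDS10 and 46.1, 60.8 and 88.3 in control. The highest CSDS10 library and the lowest control library nearly touched. A region inside Nacad had 33.0 ± 7.62 in CSDS10 and 62.6 ± 3.64 in control, and a summit between genes at chr15:59633983-59633984 had 12.9 ± 2.21 in CSDS10 and 28.9 ± 5.56 in control. The log2 fold changes of these 3 regions were -1.10 ± 0.30, -0.93 ± 0.25 and -1.11 ± 0.31 (SE). The summit on chromosome 15 also met the mean of 20 only with CSDS30, at 18.9 over the 8 libraries and 20.8 over all 13.

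For 11 genes picked from earlier results on single summits, the summit and its whole region can be set side by side, as a description only. The summits were chosen for their own difference, so a region value nearer to 0 follows from that choice and is no result. It was nearer to 0 in all 8 genes whose region has several summits. Speg, a kinase of the myosin light chain family, showed the widest gap. Its summit at chr1:75381538-75381539 had 15.2 ± 3.46 in CSDS10 and 35.5 ± 5.34 in control (log2 fold change -1.20 ± 0.32, SE), but it made up a small part of a region of 9 summits. The whole region had 491, 648, 510, 490 and 484 in CSDS10 and 508, 627 and 591 in control. At that level the groups overlapped, and the log2 fold change was -0.14 ± 0.12 (SE), and -0.22 without CSDS10 replicate 2. Camsap3, which binds the minus ends of microtubules, went the same way, with -0.55 ± 0.18 at the summit and -0.13 ± 0.14 over 9 summits; the region's value was 0.02 without control replicate 2 and -0.23 without CSDS10 replicate 2. At Npy1r, a receptor of neuropeptide Y, the summit had 0.87 ± 0.23 and the region 0.36 ± 0.15. At Cldn12, a claudin, the values were 0.70 ± 0.19 and 0.25 ± 0.12, and at Iqcj 1.19 ± 0.28 and 0.69 ± 0.30.

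In Ing5, a reader of H3K4me3, the summit and the region lay closest together. It had region values of 236, 248, 209, 193 and 209 in CSDS10 and of 166, 148 and 162 in control. The groups did not overlap, 3 of 3 summits were higher, and the log2 fold change was 0.57 ± 0.17 at the summit and 0.46 ± 0.14 over the region (SE). Rftn1, a protein of lipid rafts, had -0.51 ± 0.17 at the summit and -0.29 ± 0.11 over a region whose 7 summits were all lower, with 431 ± 44.2 in CSDS10 against 526 ± 62.1 in control. Vkorc1l1, a vitamin K epoxide reductase, had -0.58 ± 0.18 and -0.30 ± 0.11. Kcnj3, Lrrc4c and Otop1, a proton channel, each have a region of 1 summit, so that their region value is the summit's own.

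**Figure D2:**
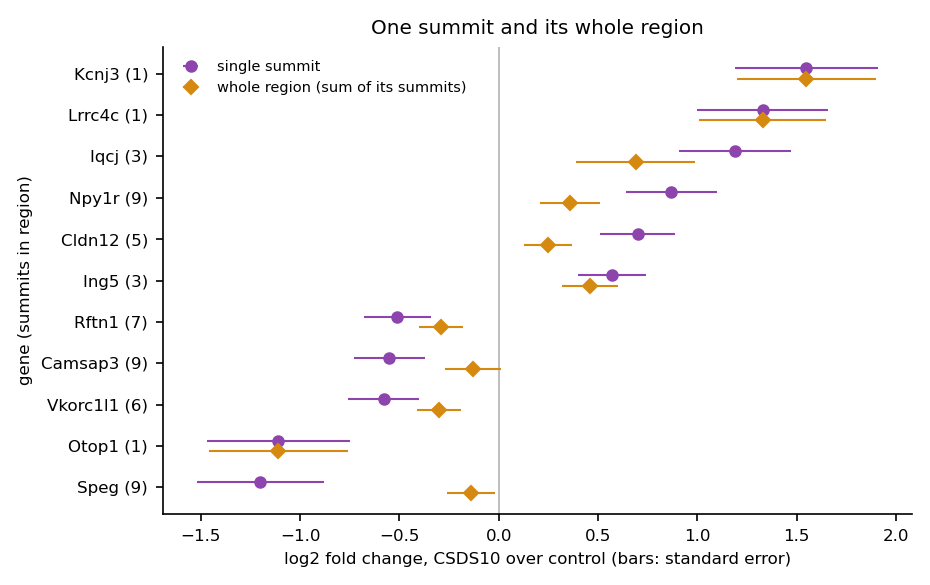
Log2 fold change of CSDS10 over control at 1 summit (circles) and over its whole region (diamonds) for 11 genes, with standard errors as bars and the number of summits of the region in brackets. The region's value lies nearer to 0 than the summit's in all 8 genes with more than 1 summit, from 0.57 and 0.46 at Ing5 to -1.20 and -0.14 at Speg.

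Summits of 1 region did not always point the same way. All summits shared 1 sign in 64.7% of 7391 regions of 2 summits, in 41.0% of regions of 3, in 18.4% of regions of 4 to 7 and in 3.46% of regions of 8 or more. Across 27310 regions, the log2 fold changes of the strongest and the second strongest summit had a Pearson correlation of 0.408; both come from the same libraries and may share fragments, and regions are not independent replicates. A test on the ratio of the strongest summit to the rest of its region, in which a library's size factor cancels apart from the pseudocount of 1, called 0 of 27393 regions (0%), with 1109 (4.05%) at an unadjusted p under 0.05. The regions with the smallest p, 3 per direction, are described next.

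In 3 regions the strongest summit held a larger share of its region in CSDS10. At the region shared by Kif9, a kinesin, and Klhl18, an adaptor of the cullin-3 ubiquitin ligase, the strongest summit held 47.7% to 53.7% of the signal in CSDS10 and 35.5% to 39.0% in control. The groups did not overlap, while the whole region had 203 ± 24.4 in CSDS10 and 197 ± 14.8 in control (log2 fold change 0.04 ± 0.14, SE). At Iqcj, a protein with a calmodulin-binding motif, the share was 52.4% ± 7.26 in CSDS10 and 36.0% ± 0.663 in control, and at the zinc-finger gene Zfp949 it was 45.2% ± 12.3 in CSDS10 and 25.8% ± 4.33 in control. In sum, Iqcj had 123 ± 51.9 in CSDS10 and 77.5 ± 39.0 in control, Zfp949 90.4 ± 24.0 in CSDS10 and 77.7 ± 38.7 in control. In the other direction stood Rc3h2, which encodes the RNA-binding protein Roquin-2. There the stronger of 2 summits held 57.1%, 58.6%, 53.9%, 63.8% and 52.5% in CSDS10 and 75.0%, 73.5% and 79.1% in control. This was the smallest p of the test on ratios (limma, unadjusted p = 0.000110, adjusted p = 0.9994), with groups far apart and a region sum of 68.6 ± 16.4 in CSDS10 and 60.4 ± 25.3 in control. At the region of Polr2a, the large subunit of RNA polymerase II, and Slc35g3 the share was 64.6% ± 6.62 in CSDS10 and 80.7% ± 9.75 in control, and at Mgat4c, a glycosyltransferase gene, 48.9% ± 8.42 in CSDS10 and 68.6% ± 6.06 in control.

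Gene lists were read at the level of regions, each gene by the strongest region within 2 kb of its boundaries. Of 14240 protein-coding genes with a tested region, 349 (2.45%) stood at an unadjusted p under 0.05, 215 higher (1.51%) and 134 lower (0.941%) in CSDS10. The groups did not overlap in 480 genes (3.37%). Above 0 lay 50.9% of the genes, and their median log2 fold change was 0.003. No member of any list passed the adjusted threshold, and no list was tested as a group. The lists that lay farthest from the median of all genes were GABA receptors on the higher side and Fox, Nkx, T-box, Irx, Sim and sine oculis homeobox factors on the lower side.

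GABA receptor genes lay mostly on the higher side, and glutamate receptor genes on both sides. Of 15 GABA receptor genes with a region, 13 were higher and 2 lower in CSDS10, with a median of 0.19 and none at an unadjusted p under 0.05. They lie on 13 distinct regions, since neighbouring genes such as Gabra4 and Gabrb1 share one. Gabrb2, which encodes a beta subunit of the GABA-A receptor, had 231, 284, 258, 247 and 228 in CSDS10 and 157, 243 and 229 in control, so that the groups overlapped. Gabra3 had 90.5 ± 15.4 in CSDS10 and 70.4 ± 25.5 in control (0.42 ± 0.24, SE). The list's median rests on single libraries: it was 0.07 without CSDS10 replicate 2, 0.02 without control replicate 1 and 0.34 without control replicate 2. Glutamate receptor genes were divided, with 11 higher and 15 lower and a median of -0.02, which was -0.09 without CSDS10 replicate 2 and ran from -0.15 to 0.15 when control replicate 1 or 2 was left out. Grm3, a metabotropic receptor that couples to inhibitory G proteins, had 623, 652, 628, 700 and 594 in CSDS10 and 477, 546 and 527 in control, without overlap (0.31 ± 0.12, SE). Grm6, the metabotropic receptor known from retinal bipolar cells, lay the other way, with 223 ± 13.9 in CSDS10 and 281 ± 26.7 in control.

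Receptors of monoamines and peptides had 14 members higher and 29 lower, with a median of -0.07, which was -0.17 without CSDS10 replicate 2, -0.20 without control replicate 1 and 0.00 without control replicate 2. Sstr2, a somatostatin receptor, had 381, 429, 427, 412 and 408 in CSDS10 and 453, 533 and 514 in control; the groups did not overlap and 9 of 9 summits were lower (-0.28 ± 0.11, SE). Synaptic adhesion and scaffold genes had 19 higher and 13 lower, with a median of 0.05 that turned in sign with single libraries, to -0.07 without CSDS10 replicate 2 and -0.09 without control replicate 1. Potassium channel genes had 29 higher and 44 lower, with a median of -0.03, which was -0.10 without CSDS10 replicate 2, -0.18 without control replicate 1 and 0.07 without control replicate 2. Kcnj5, which encodes a partner of the GIRK1 subunit, had 42.2 ± 4.15 in CSDS10 and 64.6 ± 16.9 in control (-0.57 ± 0.24, SE). Markers of excitatory neurons had 12 higher and 8 lower with a median of 0.04, and markers of inhibitory neurons 5 higher and 16 lower with a median of -0.06. The excitatory median was -0.06 without CSDS10 replicate 2, -0.13 without control replicate 1 and 0.17 without control replicate 2. For inhibitory markers the median was -0.10 without CSDS10 replicate 2 and -0.20 without control replicate 1.

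Lists of glial and vascular genes had medians that moved with single libraries. Oligodendrocyte and myelin genes had 8 members higher and 15 lower, with a median of -0.11, which was -0.02 without control replicate 2. The members with the smallest p were Mal, a myelin proteolipid, and Myrf, the transcription factor of myelination. Mal had 189, 120, 168, 134 and 159 in CSDS10 and 236, 188 and 180 in control, where CSDS10 replicate 1 reached the range of the control libraries. Myrf had 149, 94.6, 155, 164 and 167 in CSDS10 and 227, 170 and 180 in control, where the groups lay next to each other without overlap. Mbp, the main protein of myelin, had 555 ± 75.7 in CSDS10 and 546 ± 93.6 in control, and Cnp 307 ± 15.4 in CSDS10 and 301 ± 18.7 in control. Astrocyte markers had 9 higher and 8 lower. Only 10 of 22 microglia markers had a tested region, 6 of them higher and 4 lower, and among these Irf8, a transcription factor of microglia and other myeloid cells, had 242, 220, 277, 232 and 244 in CSDS10 and 307, 297 and 288 in control. All 5 CSDS10 libraries lay below the control libraries there (-0.29 ± 0.13, SE). Endothelial and mural markers had 8 higher and 14 lower, with a median of -0.06, and 0.00 without CSDS10 replicate 2.

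Histone genes leaned higher. Of 70 core and linker histone genes with a region, 54 were higher and 16 lower, with a median of 0.07, which stayed between 0.06 and 0.10 with any 1 library left out. Neighbouring genes of the clusters share regions, and by distinct regions the count was 32 higher and 12 lower of 44. An earlier reading of single summits in these libraries showed the same lean, so this count is no independent evidence of it. Those at an unadjusted p under 0.05 were H2ac8, H2bc7 and H2bc8, whose shared region was described above, and H1f6 and H4c3, which share a region that had 131 ± 33.0 in CSDS10 and 92.0 ± 16.6 in control. Genes that write, erase or read H3K4 methylation had 19 higher and 12 lower, with Ing5 described above, and Cxxc1, the CpG-binding subunit of the SET1 complexes, had 308 ± 15.5 in CSDS10 and 357 ± 24.0 in control without overlap (-0.21 ± 0.11, SE). Other chromatin modifiers had 19 higher and 13 lower.

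Nuclear genes of oxidative phosphorylation had 47 members higher and 29 lower, with a median of 0.04. The region shared by Atp5j, a subunit of ATP synthase, and Gabpa had 934, 974, 905, 911 and 907 in CSDS10. In control it had 807, 770 and 782. The groups were well apart, with a log2 fold change of 0.24 ± 0.07 (SE). Cox7c, a subunit of cytochrome c oxidase, had 369 ± 50.9 in CSDS10 and 294 ± 11.7 in control, also without overlap. Ribosomal protein genes had 46 higher and 34 lower with a median of 0.01, and heat shock and chaperone genes 47 and 30 with a median of 0.03. Developmental factors lay mostly on the lower side. Of 68 Fox, Nkx, T-box, Irx, Sim and sine oculis homeobox factors with a region, 14 were higher and 54 lower, with a median of -0.12 that stayed between -0.15 and -0.11 with any 1 library left out. Besides Tbx21, the smallest p-values were at Six5 and Nkx1-1. Six5, whose region is shared with Dmpk, had 505 ± 57.6 in CSDS10 and 607 ± 63.2 in control. Nkx1-1 had 79.2 ± 16.1 in CSDS10 and 104 ± 4.46 in control. Hox, Pax, Gata and Lhx factors had 13 higher and 21 lower of 34, with a median of -0.08, which was 0.05 without control replicate 1. Clustered protocadherins had 9 higher and 24 lower of 33. By distinct regions these were 11 and 20 of 31 for the Hox, Pax, Gata and Lhx factors and 8 and 16 of 24 for the protocadherins.

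Genes of the response to stress and activity did not lean either way. Of 44 activity-regulated genes with a region, 20 were higher and 24 lower, with a median of -0.02. Dusp6, a phosphatase of ERK, had 1240, 1550, 1202, 1333 and 1274 in CSDS10 and 1238, 1049 and 1013 in control, where all but 1 of the CSDS10 libraries exceeded the control libraries (0.26 ± 0.09, SE). Maff, a small Maf factor like Mafk, had 427, 374, 388, 363 and 398 in CSDS10 and 465, 428 and 504 in control, lower in CSDS10 without overlap. Fos had 507 ± 22.1 in CSDS10 and 471 ± 29.3 in control, and Arc 814 ± 113 in CSDS10 and 851 ± 17.8 in control. Glucocorticoid and stress-axis genes had 13 higher and 12 lower, with none at an unadjusted p under 0.05. Nr3c2, the mineralocorticoid receptor, had 1509 ± 52.8 in CSDS10 and 1404 ± 95.7 in control (SD, 5 and 3 libraries).

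**Figure D3:**
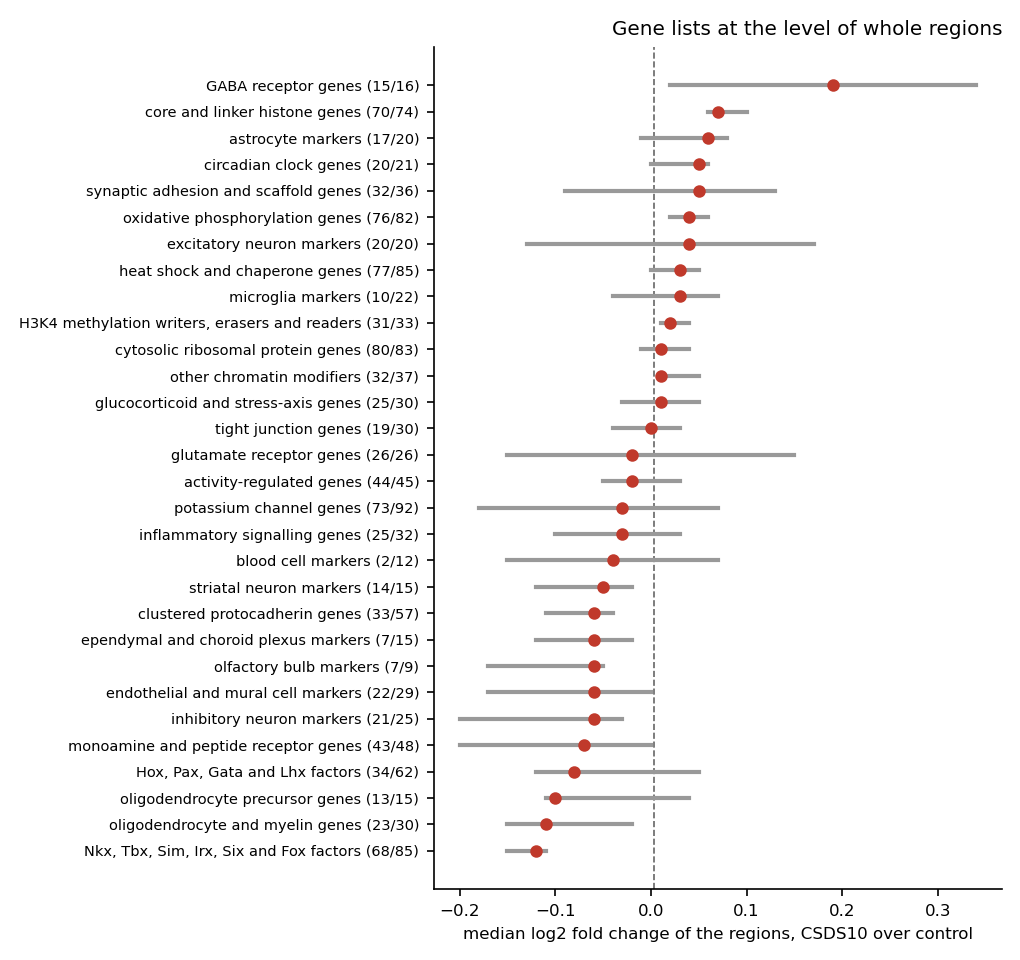
Points give the median log2 fold change of CSDS10 over control across the regions of each gene list, grey bars the range of that median when any 1 library is left out, and the dashed line the median of 0.003 over all protein-coding genes. Brackets give the members with a tested region and the size of the list. GABA receptor genes lie highest at 0.19 with the widest bar, and the Fox, Nkx, T-box, Irx, Sim and sine oculis homeobox factors lowest at -0.12 with a narrow bar.

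Around start sites, the mean value per summit followed the same course in both groups. In the 200 bp after the start site it was 83.0 ± 5.06 in CSDS10 and 81.7 ± 0.323 in control, and in the 200 bp before it 55.3 ± 0.937 in CSDS10 and 54.4 ± 0.750 in control (SD, 5 and 3 libraries). The larger SD of CSDS10 came with replicate 2, whose curve was the highest in the first 400 bp. Over 20 bins from -2000 to 2000 bp, the log2 ratio of the group means lay between -0.009 and 0.052, and the groups overlapped in every bin. By position, regions within 2 kb of a protein-coding gene had a median log2 fold change of 0.014 and those between genes -0.055. The value between genes, from 4939 weak regions, was -0.004 without CSDS10 replicate 2.

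**Figure D4:**
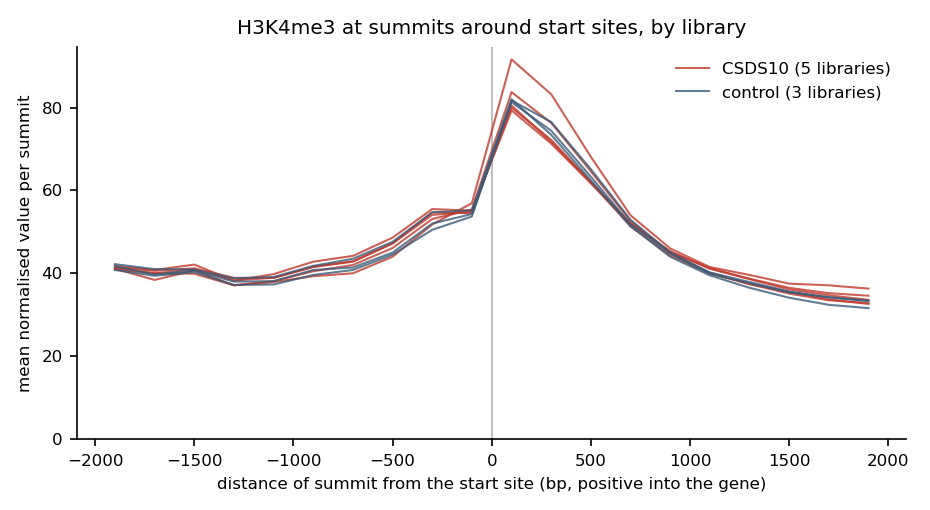
Mean normalised value per summit in bins of 200 bp from 2000 bp before to 2000 bp after the start site, 1 line per library, CSDS10 and control. The lines run together except for 1 CSDS10 library, replicate 2, which lies above the others in the first 400 bp of the gene.

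The X chromosome had the highest median of all chromosomes. Of its 1310 regions, 848 were higher and 462 lower in CSDS10, where 50.5% of all regions were higher, with a median log2 fold change of 0.080, and 51 were higher and 5 lower at an unadjusted p under 0.05 (3.89% and 0.382%, against 1.88% and 1.26% of all regions). Without CSDS10 replicate 2 the counts were 60 and 12 (4.58% and 0.916%, against 2.61% and 1.43% of all regions) and the median 0.069. Without control replicate 3 they were 31 and 2 (2.37% and 0.153%, against 1.39% and 0.573%) and the median 0.081. Per library, the median of the X regions, centred and set against that of all regions, was 0.035, 0.106, 0.068, 0.008 and 0.015 in CSDS10 and -0.059, 0.011 and -0.052 in control. Control replicate 2 lay between CSDS10 replicates, so that the groups overlapped, and the difference of 0.080 had an exact two-sided permutation p of 0.0714 (adjusted p = 0.179 over 20 chromosomes). Chromosomes 3 and 13 were higher and 8 and 17 lower in CSDS10 with groups that did not overlap (exact permutation p = 0.0357 each, the smallest that 56 splits allow; adjusted p = 0.179), by 0.041, 0.029, -0.021 and -0.036. None of the 20 passed after adjustment.

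Regions of genes with low promoter GC content had the higher median difference, but libraries of both groups varied along the same gradient. Regions were grouped by the promoter GC content of a coding gene with a boundary, start or end, within 2 kb. A region need not cover that promoter. The median log2 fold change was 0.042 in the quintile of lowest GC (median 49.7% GC) and 0.005 in that of highest GC (73.0%). In the quintiles between them it was 0.017, 0.009 and 0.008, in order of rising GC. At an unadjusted p under 0.05 the lowest quintile had 108 higher and 40 lower of 4321 regions (2.50% and 0.926%). The highest had 69 and 55 (1.60% and 1.27%), against 1.88% and 1.26% of all regions. Without control replicate 3 the lowest quintile had 64 and 15 (1.48% and 0.347%), against 1.39% and 0.573% of all regions. Without control replicate 1 it had 229 and 49 (5.30% and 1.13%), against 3.07% and 1.52% of all regions. Per library, the centred median of the lowest quintile minus that of the highest was -0.020, -0.144, 0.061, 0.080 and 0.033 in CSDS10 replicates 1 to 5 and 0.031, -0.090 and -0.047 in control replicates 1 to 3. The groups overlapped, with a mean of 0.002 in CSDS10 and -0.035 in control and a difference of 0.037 (exact two-sided permutation p = 0.536). With any 1 library left out, a check added after the data were seen, the difference lay between 0.010 (without control replicate 2) and 0.074 (without CSDS10 replicate 2), with exact permutation p-values from 0.114 to 0.762. By the same assignment, regions on X had the lowest median promoter GC of the 19 chromosomes with promoter sequences. It was 58.7%, against 60.0% to 63.7% on the others. The part of base composition in the difference on X was not tested. Gabra3, described above, and Gabre lie on X and had higher values in CSDS10, neither past the adjusted threshold.

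**Figure D5:**
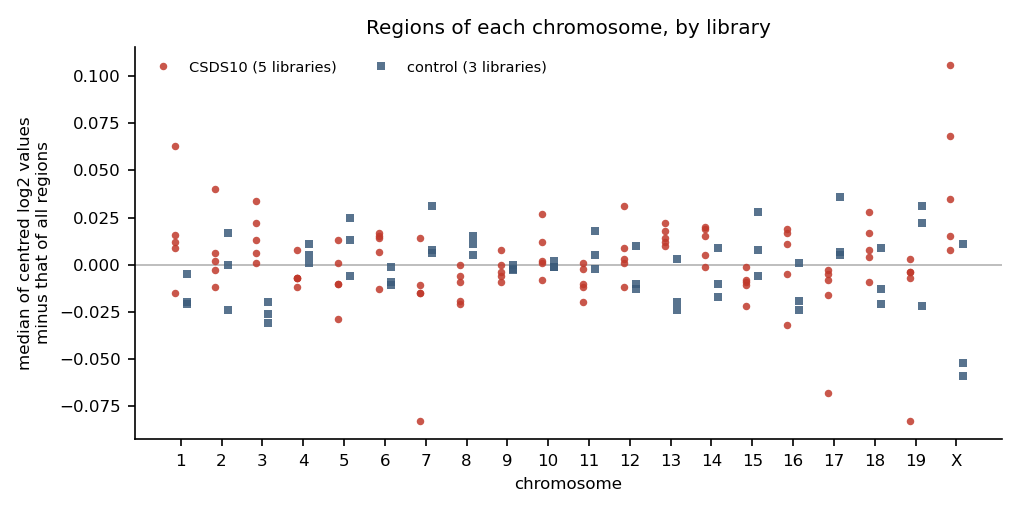
For each chromosome, the median over its regions of the log2 value centred on each region's mean, minus the same median over all regions, 1 point per library, with CSDS10 as circles to the left and control as squares to the right. On X the CSDS10 libraries run from 0.008 to 0.106 and the control libraries from -0.059 to 0.011, and most other chromosomes stay within a narrower band.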

How the data were processed

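The authors' deposited table holds a normalised signal per summit and library: reads divided by 1 size factor per library, with 100% of values whole reads at a tolerance of 0.001. The submitters' processing notes name Bowtie2, MACS2, Trimmomatic and DESeq2 and the builds mm10 and GRCm38.p5, without versions or roles. The window counted around a summit and the handling of duplicates: not given in the sources used here. No use was made of the deposited peak score, whose scale the authors' table does not state, or of the input library. The members, gene lists and rules were chosen with earlier results of these data known. A few genes of the lists are counted but not reported here by name.

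Summit values were summed per called region (summit letter removed). limma 3.58.1 with a variance trend (R 4.3.3) was run on log2(value + 1) over all 13 libraries, with CSDS10 minus control as contrast, and adjusted by Benjamini-Hochberg over all 48174 regions, 152270 summits or 27393 within-region ratios left by filterByExpr on recovered reads (521 regions and 937 summits left out). Fold changes are on the log2(value + 1) scale, which understates those of weak regions. The limma fits of regions and of within-region ratios, and the edgeR fit of regions with TMM scaling, were tested on simulated data. The other fits were not. edgeR 4.0.16 and DESeq2 1.42.0 on recovered reads, other scalings, pseudocounts, filters, merged regions and leaving out each library were alternatives. Single values were compared by exact permutation tests (scipy 1.17.1). Genes came from RefSeq boundaries on GRCm38.p6, read within 2 kb of either boundary (1 symbol of the lists was not matched); start sites were known for 17492 of 21887 protein-coding genes.

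Named were 10 regions per direction by smallest p near a gene and 3 away from genes. All of these had a mean of 20 or more and groups that do not overlap. Also named were 3 per direction of 8 or more summits, 3 by the ratio test, up to 3 per list by smallest p, and 11 fixed genes. Members set beside them for contrast (Mbp, Cnp, Fos, Arc and the like) were added after their values were seen. Gene models and receptor families of smell were not named.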

Additional observations from a re-analysis of the deposited data

Results flagged for a closer look

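Among the 115 regions examined by name, 10 had a CSDS10 library far from the other 4 in normalised value; by chance about 1 in 20 would. In 8 of them it was replicate 2, the library that stood apart on the first principal component. Replicate 2 was the highest at Speg (648), Slc1a2 (590), Meis2 (2115), Slitrk5 (761), Kat5 (390) and Pcdha12 (59.3), and the lowest at Myrf (94.6) and Grm6 (199). Its part in the group differences there can be read without it: the log2 fold change of Myrf was -0.41 with it and -0.26 without it, that of Meis2 0.20 and 0.10, and that of Slitrk5 0.25 and 0.11. Replicate 1 was the lowest at Eef1aknmt (15.6) and the highest at Dnaja1 (556).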

How the results depend on the processing

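Under every alternative that was run, 0 regions, 0 summits and 0 within-region ratios were called. The number at an unadjusted p under 0.05 moved with single libraries: from 944 to 2210 regions, 3236 to 7007 summits and 793 to 1366 ratios, each lowest without control replicate 3 and highest without control replicate 1. It was 753 of 24176 with regions within 2 kb merged. Of 2413 alternative log2 fold changes for 115 named regions, 2405 kept their direction and their side of the threshold and 8 turned in sign. This count does not cover the within-region ratios. With regions within 2 kb merged this was the region of Cfap52 and Stx8 (0.06), where the sum takes in neighbouring regions. Without control replicate 2 they were Camsap3 (0.02) and Emcn (-0.05); over all libraries left out in turn, Camsap3 ran from -0.29 to 0.02 and Emcn from -0.05 to 1.24. With the strongest summit in place of the sum they were Rorb (-0.03), Sox18 (0.02), Kdm6a (-0.25), Hlf (-0.00) and Kcnt2 (-0.12), where other summits of the region lie the other way. Many list medians moved with single libraries. Without control replicate 1 they were -0.20 for inhibitory neuron markers, 0.07 for blood cell markers, 0.035 for inflammatory genes and 0.05 for Hox, Pax, Gata and Lhx factors. The same setting gave 0.02 for GABA receptor genes, -0.13 for excitatory neuron markers and -0.18 for potassium channel genes. Without control replicate 2 the medians were 0.04 for oligodendrocyte precursor genes, -0.10 for inflammatory genes and 0.15 for glutamate receptor genes. Blood cell markers had -0.15 without control replicate 3. Lists not named here can have moved as well. With a replicate block, 0 regions were called and 1838 stood at an unadjusted p under 0.05. Deviations of same-numbered CSDS10 and control libraries correlated at 0.151, 0.399 and -0.014, and those of differently numbered ones at -0.457 to 0.317. So few values cannot decide whether the replicate numbers pair the libraries. The precision is that of a median interval of ± 0.532.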
